A study of Mus musculus with 17 samples.

Results

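The collagen genes were examined in kidney cortex RNA-seq from 4 groups of mice. They were taken as every protein coding gene of the deposited count table whose name is Col, a number, the letter a and a number, which gave 44 of 48795 genes. Of these, 11 encode fibrillar collagens, 8 encode basement membrane collagens (6 type IV chains, Col15a1 and Col18a1) and 25 encode other types. The other types are 6 chains of the beaded filament type VI, 9 collagens that sit on fibrils with interrupted triple helices (the FACIT group), 4 transmembrane collagens, 3 short chain network collagens, the anchoring fibril chain Col7a1 and 2 that were put in no subclass.

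Of the 17 libraries, 5 were WT, 5 were GCERAd, 3 were TRACK and 4 were GCERAdT. GCERAd mice carried a CreER transgene under a Ggt1 promoter together with floxed Atf4 alleles. Tamoxifen (200 µL, 20 mg/mL) was given to them at 6 weeks of age on 2 consecutive days, which deletes Atf4, a transcription factor of the integrated stress response, in proximal tubules. The mice were killed 1 month after the first injection, after a 16 h fast. TRACK mice are a transgenic kidney cancer model in which a constitutively active HIF1α is expressed from a proximal tubule promoter, and the libraries labelled GCERAdT come from TRACK mice with the Atf4 knockout. Whether WT and TRACK mice received tamoxifen is not given in the sources used here. Because both transgenes act in proximal tubules while whole cortex was sequenced, RNA of every other cortical cell type is included in each library. The methods name 3 to 4 mice per cohort, so the 5 WT and 5 GCERAd libraries may not all be separate mice, and p-values then measure only the spread between libraries.

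Collagens are trimers of chains wound into a triple helix, and each chain has its own gene. Fibrillar collagens form the banded fibrils of the interstitium and are made mainly by fibroblasts and other mesenchymal cells. Type IV collagen forms the sheet of basement membranes: the α1 and α2 chains are found in nearly all basement membranes, whereas the α3, α4 and α5 chains make the network of the mature glomerular basement membrane and are made by podocytes and some tubule cells. Loss of the latter chains causes Alport syndrome, and accumulation of fibrillar collagen marks kidney fibrosis.

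Totals on genes were between 53688512 and 71364561 counts per library. Atf4 was at 74.4 to 100.1 CPM (counts scaled to the library total) in WT and 56.0 to 77.0 CPM in GCERAd, and at 77.2 to 93.8 CPM in TRACK and 79.6 to 104.2 CPM in the libraries labelled GCERAdT, so that it was not lower in the knockout label on the TRACK background. Xist was at 149 to 418 CPM in the WT libraries and at most at 6.07 CPM in all others, where the Y-linked gene Ddx3y was at 49.8 to 80.3 CPM. The sex difference that these values show between WT and the other 3 groups cannot be told apart from GCERAd against WT or TRACK against WT, whereas GCERAdT, GCERAd and TRACK did not differ in it. The share of counts on processed pseudogenes parted the libraries into 2 kinds. It was 0.032% to 0.038% in kind A, which held WT 1, 3, 4 and 5, GCERAd 1 and 2, and GCERAdT 1 and 2, and 0.0574% to 0.0784% in kind B, which held the other 9 libraries, including all 3 of TRACK. Kind and group therefore nearly coincided in TRACK against WT. GCERAd 4 and 5 stood apart from GCERAd 1 to 3: of the 43 members with a count, 23 were lower in both of these libraries than in all 3 others, and 3 were higher in both (Col27a1, Col8a1 and Col13a1). Of all 28116 genes with a count, 15.9% were lower and 15.6% higher in the same way, so that GCERAd 4 and 5 stood apart in many other genes too. Results that rest on them are given with and without these libraries.

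Markers of the cells that make collagen also differed between groups. The summed level of 7 fibroblast markers was 109 to 136 CPM in WT, 122 to 186 CPM in GCERAd, 174 to 301 CPM in TRACK and 127 to 149 CPM in GCERAdT. For 7 pericyte and smooth muscle markers it was 146 to 181, 156 to 299, 383 to 534 and 205 to 272 CPM, and for 8 endothelial markers 545 to 619, 472 to 684, 930 to 1052 and 669 to 785 CPM, in the same order of groups. All TRACK libraries were above all WT libraries in these 3 sums. The 6 proximal tubule markers summed to 5405 to 6974 CPM in WT and 3218 to 3676 CPM in TRACK, and were detected in every group as the labelled tissue would have them. Slc34a1 held the largest part of this sum in WT (2707 to 3418 CPM, and 824 to 1189 CPM in TRACK). Of the 6, 3 were called lower in TRACK than in WT, beside 22.6% of all genes. Slc22a6 was called higher (320 to 392 CPM in WT and 524 to 746 CPM in TRACK), beside 23.0% of all genes. Distal tubule and collecting duct markers were called lower than in WT for 4 of 5 genes in both GCERAd and TRACK, beside 13.5% and 22.6% of all genes. Their sums were 6672 to 9111 CPM in WT, 4393 to 5376 CPM in GCERAd, 4174 to 6874 CPM in TRACK and 4859 to 5337 CPM in GCERAdT. The 3 markers of injured tubules were higher in TRACK than in WT, with sums of 32.4 to 68.4 and 8.28 to 11.6 CPM. Adipocyte markers summed to 78.97, 4.28 and 2.98 CPM in TRACK 1 to 3 and to 1.21 to 1.95 CPM in GCERAdT. Of these markers 3 of 3 tested (Adipoq, Cfd and Cidec) were called lower in GCERAdT than in TRACK by edgeR, beside 4.31% of all genes. DESeq2 called 1 of the 3. All 3 met the minimum level for testing, given below, only through TRACK, so a difference in them was built into the selection. Dcn, Lum and Dpt belong both to the fibroblast markers and to the list of fibril-associated matrix genes. In bulk tissue, fewer cells of a type and less RNA per cell cannot be told apart, and the part of these shifts in the collagen values was not tested.

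Transcript levels were first compared between genes as FPKM, since long genes otherwise collect more reads. FPKM are CPM, with the same TMM scaling, divided by the length of the merged exons in kilobases. Type IV collagen and Col18a1, the source of endostatin, made up most of the collagen mRNA of the cortex. In WT, Col4a3 was at 25.1 FPKM, Col4a4 at 22.1 FPKM, Col4a1 at 21.7 ± 1.97 FPKM (SD, n = 5), Col18a1 at 21.5 FPKM and Col4a2 at 18.1 FPKM, and the ranges of neighbouring genes in this order overlapped. Next was Col4a5 at 6.40 FPKM. The highest fibrillar genes in WT were far lower, with Col1a2 at 2.18 FPKM, Col3a1 at 1.38 FPKM, Col27a1 at 1.30 FPKM and Col1a1 at 1.14 FPKM.

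Summed over the class, basement membrane collagens held 85.4% of the collagen FPKM in WT, 80.9% in GCERAd, 80.5% in TRACK and 80.0% in GCERAdT. Each WT library was above every library of the other groups. The share of fibrillar collagens was 5.92% in WT, 8.69% in GCERAd, 8.07% in TRACK and 9.64% in GCERAdT, and that of the other types 8.65%, 10.4%, 11.4% and 10.3%. All collagens together came to 137 ± 9.35 FPKM in WT (n = 5), 149.7 ± 18.6 in GCERAd (n = 5), 175 ± 20.9 in TRACK (n = 3) and 166 ± 15.4 in GCERAdT (n = 4). These sums are descriptions without a test. Of the 44 members, 18 had a mean of at least 1 FPKM in at least 1 group and 14 in every group, 26 were below 1 FPKM in every group, and 16 of these were below 0.1 FPKM in every group. Col10a1, a collagen of growth plate cartilage, had no count in any library.

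**Figure D1:**
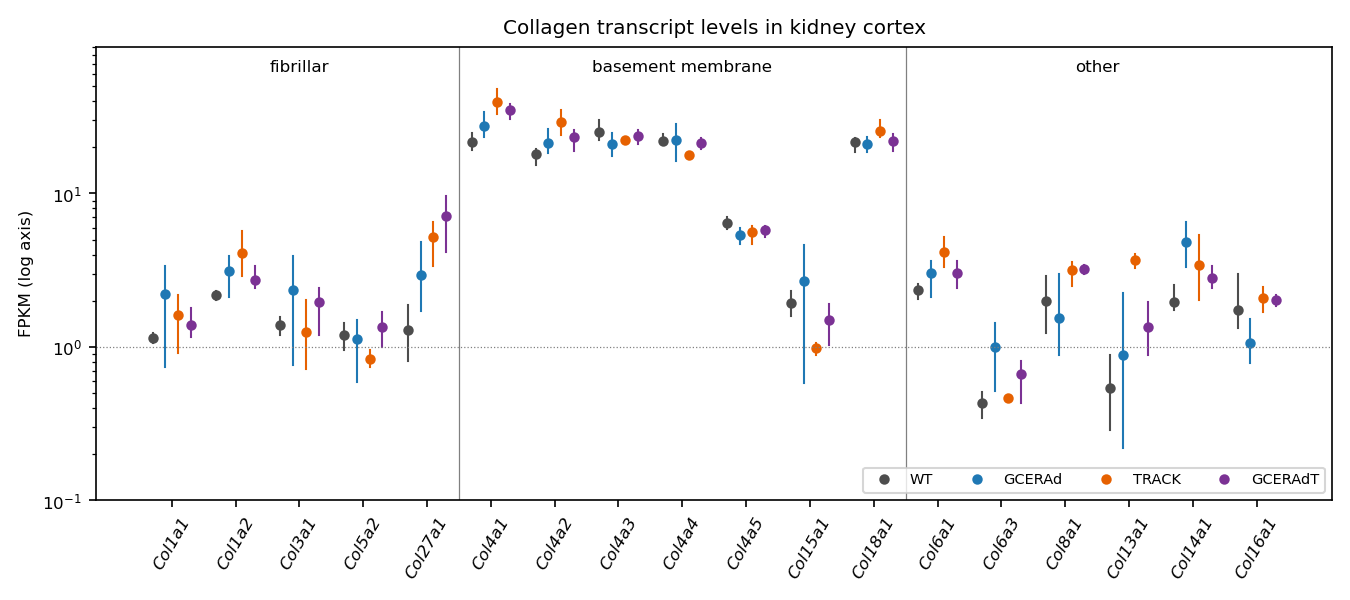
Mean transcript level (FPKM, log axis) of the 18 collagen genes that reached a mean of 1 FPKM (dotted line) in at least 1 group, by class and group; points are group means and lines run from the lowest to the highest library. Type IV chains other than Col4a5, and Col18a1, lie above the fibrillar and other collagens in each group, and Col27a1 and Col13a1 show the widest separation between WT and TRACK.

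The start regions of 4 members are shown as examples of members whose levels differed between groups, or between libraries of a group, in the results that follow. These are Col27a1, a fibrillar collagen of cartilage and developing tissues, Col13a1, a transmembrane collagen of cell adhesion sites, Col15a1, a basement membrane collagen of vessels and muscle, and Col6a6, a chain of type VI collagen. They were chosen after their values had been seen. The sequences are the RefSeq bases upstream of the transcription start (GRCm38.p6), written 5′ to 3′ on the strand of the gene, and capitals mark matches to GGGCGG (the GC box) or ACGTG (the core of the hypoxia response element) on either strand. Col27a1 is at chr4:63215162-63215411 (plus strand), Col13a1 at chr10:61979109-61979358 (minus strand), Col15a1 at chr4:47207762-47208011 (plus strand) and Col6a6 at chr9:105828161-105828335 (minus strand, cut to the 175 bases outside exons). The Col27a1 window lies inside the longer GENCODE gene but in no exon.
Col27a1: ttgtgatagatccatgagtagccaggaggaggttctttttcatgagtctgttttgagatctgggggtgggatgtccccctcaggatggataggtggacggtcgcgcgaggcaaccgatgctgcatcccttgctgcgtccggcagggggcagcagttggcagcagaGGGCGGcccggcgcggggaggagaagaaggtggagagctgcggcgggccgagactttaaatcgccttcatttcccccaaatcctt
Col13a1: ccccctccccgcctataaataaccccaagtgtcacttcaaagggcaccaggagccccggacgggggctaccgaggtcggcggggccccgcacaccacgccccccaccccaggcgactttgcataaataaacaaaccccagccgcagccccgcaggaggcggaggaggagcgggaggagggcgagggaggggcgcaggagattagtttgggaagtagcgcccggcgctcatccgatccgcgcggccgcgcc
Col15a1: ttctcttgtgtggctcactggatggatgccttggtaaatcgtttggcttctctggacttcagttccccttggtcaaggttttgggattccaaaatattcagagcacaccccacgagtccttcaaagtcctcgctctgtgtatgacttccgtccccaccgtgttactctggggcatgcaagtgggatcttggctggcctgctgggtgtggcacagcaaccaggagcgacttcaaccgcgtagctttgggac
Col6a6: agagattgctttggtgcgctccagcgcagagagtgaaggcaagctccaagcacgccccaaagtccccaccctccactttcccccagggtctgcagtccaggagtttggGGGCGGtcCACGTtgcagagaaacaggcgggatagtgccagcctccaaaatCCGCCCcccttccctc

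The Col27a1 window held GGGCGG 85 bases before the start, and the Col6a6 window held it 142 and 91 bases before the start with ACGTG on the other strand at 134 bases. Neither motif was found in the Col13a1 and Col15a1 windows. A start region was matched in RefSeq for 35 of the 44 members. Of these 35, 21 (60%) held GGGCGG in the 250 upstream bases, against 32.7% of 32851 promoters of all genes. CCAAT was found in 12 members (34.3%, against 33.8% of all promoters) and ACGTG in 5 (14.3%, against 16.6%), namely Col1a2, Col5a1, Col11a2, Col4a4 and Col6a6. TGATGNAA, the core of the element bound by ATF4 with C/EBP proteins, was found in 0 of the 35 members and in 3.45% of all promoters. A match of letters is a description and does not show that a factor binds there. The type IV genes are arranged head to head in pairs, with start sites 21 bases apart for Col4a1 and Col4a2 on chromosome 8, 72 bases apart for Col4a3 and Col4a4 on chromosome 1 and 1309 bases apart for Col4a5 and Col4a6 on the X chromosome. The windows of Col4a1, Col4a2 and Col4a4 reached into the transcript of the partner gene.

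Each pair of groups was then compared with edgeR's quasi-likelihood test. Genes were tested when their mean was at least 1 FPKM in either group, and were called when the p adjusted over all genes tested by Benjamini and Hochberg's method did not exceed 0.05. Members below this minimum were taken from a second fit that held every gene with a count. In GCERAd against WT, 17 members passed the minimum, of which Col6a3 passed only through GCERAd, and 7 were called, where 27.6% of all 11636 genes tested were called. The 6 called higher were Col1a1, Col1a2, Col27a1, Col4a1, Col6a3 and Col14a1 (14.2% of all genes were called higher) and Col4a5 was called lower (13.5%). A difference in Col6a3 was built into the selection, since it met the minimum through GCERAd alone. The members tested had a median log2 difference of 0.33, and all genes 0.00. Among members below the minimum, Col6a2, Col6a4, Col6a6 and Col19a1 were called higher and Col4a6 and Col26a1 lower in the fit without a minimum, in which 5.65% of genes were called higher and 6.03% lower.

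TRACK against WT had the most calls. Of 17 members that passed the minimum, 10 were called, beside 45.7% of all 11950 genes. The 7 called higher were Col1a2, Col27a1, Col4a1, Col4a2, Col6a1, Col13a1 and Col14a1 (23.0% of all genes were called higher). The 3 called lower were Col5a2, Col4a4 and Col15a1 (22.6%). Col5a2 and Col15a1 passed the minimum only through WT and Col13a1 only through TRACK, so a difference in these 3 was built into the selection. The median log2 difference of the members was 0.50, and that of all genes -0.01. Col6a5 and Col6a6, both below the minimum, were called higher in the fit without one, where 11.7% of genes were called higher.

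Between GCERAdT and TRACK, which differ in the knockout label on the same transgenic background, 1 of 17 members was called. This was Col13a1, which was lower, where 4.31% of all 11865 genes were called lower, 2.80% higher and 7.10% either way. At an unadjusted p of at most 0.05, 6 of the 17 members passed, beside 25.1% of all genes, and DESeq2 called 4 at its adjusted p (13.1% of all genes), namely Col13a1 lower and Col5a2, Col15a1 and Col4a4 higher. Col5a2 and Col15a1 passed the minimum only through GCERAdT, so that a difference in them was built into the selection. The median log2 difference was -0.02 over the members and 0.01 over all genes. Without a minimum, Col6a6 and Col19a1 were called higher (2.14% of genes) and Col6a5 lower (2.61%). Between GCERAdT and GCERAd, 18 members passed and 5 were called, with 19.2% of all 11793 genes called. Col27a1, Col4a1, Col8a1 and Col16a1 were higher (9.40% of all genes were called higher) and Col14a1 was lower (9.76%). Libraries of these 2 groups with the same replicate number deviated together, but the labels do not say that they were matched. Each shared number was of 1 library kind, so number and kind cannot be told apart. With the number as a block 7 members were called, beside 31.8% of all genes (edgeR). Col13a1 (log2 difference 1.61, adjusted p = 0.0165, edgeR) and Col6a3 (-0.64, adjusted p = 0.0149) were called in addition. These 2 members passed the minimum through 1 group only, Col13a1 through GCERAdT and Col6a3 through GCERAd, so a difference in them was built into the selection too. The comparisons share control libraries, so each is read on its own.

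**Figure D2:**
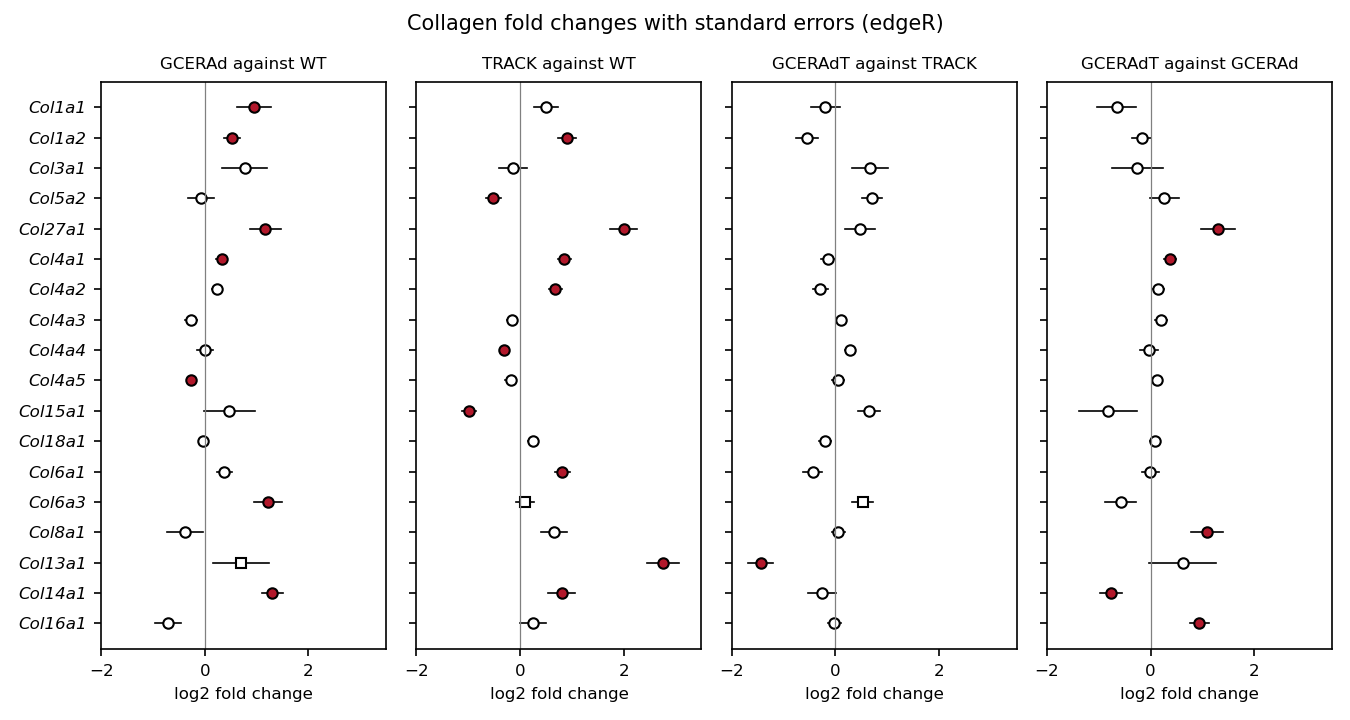
Log2 fold change (x axis, edgeR) of the 18 collagen genes in the 4 pairwise comparisons; filled points were called (adjusted p up to 0.05), squares are members below the minimum taken from the fit of all genes with a count, and bars are ±1 SE. TRACK against WT holds 10 filled points, and GCERAdT against TRACK only Col13a1.

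The chains of the widespread type IV network were higher than WT in TRACK. Col4a1 (ENSMUSG00000031502, chromosome 8, 11198423 to 11312826, minus strand) encodes the α1 chain. It was at 164, 144, 184, 160.4 and 158 CPM in WT 1 to 5 and at 190.3, 253, 203, 175 and 199 CPM in GCERAd 1 to 5. In TRACK 1 to 3 it was at 276, 245 and 358 CPM, and in GCERAdT 1 to 4 at 278, 285, 227 and 261 CPM. Every TRACK and GCERAdT library was above every WT library, and only GCERAd 4 fell among the WT values. The log2 difference was 0.85 (SE 0.12, adjusted p = 0.000355, edgeR) for TRACK against WT, 0.33 (SE 0.10, adjusted p = 0.0340) for GCERAd against WT and 0.38 (SE 0.12, adjusted p = 0.0426) for GCERAdT against GCERAd. GCERAdT and TRACK overlapped (-0.14, adjusted p = 0.568). The calls in GCERAd against WT and in GCERAdT against GCERAd were lost without a minimum (adjusted p = 0.0651 and 0.0809) and in several fits that left out 1 library, with a highest adjusted p of 0.0735 and 0.125.

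Col4a2, the partner α2 chain, was at 121, 102, 127, 129 and 120.2 CPM in WT, 132, 174, 135, 121 and 145 CPM in GCERAd, 185, 159, 232 CPM in TRACK, and 162, 171, 125 and 159.6 CPM in GCERAdT. TRACK lay above WT without overlap, and GCERAd and GCERAdT each reached into the WT range. The difference was 0.68 for TRACK against WT (SE 0.12, adjusted p = 0.00141, edgeR), and 0.23 for GCERAd against WT (adjusted p = 0.115). As FPKM, the ratio of Col4a1 to Col4a2 was 1.10 to 1.29 in WT, 1.22 to 1.33 in GCERAd, 1.32 to 1.37 in TRACK and 1.45 to 1.61 in GCERAdT, so that GCERAdT was above all other libraries in it. Col4a1 overlaps the start of Col4a2 on the opposite strand, and the strand setting of the counting is not given in the sources used here.

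By edgeR, no chain of the glomerular network was called higher in any of the 4 comparisons, whereas DESeq2 called Col4a4 higher in GCERAdT than in TRACK. Col4a3 was at 252, 229, 299.7, 222 and 248 CPM in WT, 247, 222, 214, 181 and 175 CPM in GCERAd, 234, 225 and 211 CPM in TRACK, and 258, 253, 225 and 208 CPM in GCERAdT. It passed the threshold in no comparison, and its log2 difference was -0.27 (adjusted p = 0.0953) for GCERAd against WT and -0.17 (adjusted p = 0.181, edgeR) for TRACK against WT. Col4a4 was at 235, 219, 257, 229 and 232 CPM in WT, 302, 266, 255, 181 and 172 CPM in GCERAd, 197, 179 and 193 CPM in TRACK, and 244, 242, 208 and 214 CPM in GCERAdT. All TRACK libraries were below all WT and all GCERAdT libraries, while GCERAd 1 to 3 were near or above WT and GCERAd 4 and 5 below it. Col4a4 was lower in TRACK than in WT by a log2 difference of -0.31 (SE 0.07, adjusted p = 0.00531, edgeR), a call that was lost when all 17 libraries were fitted together (adjusted p = 0.111). GCERAdT was above TRACK by 0.28 (SE 0.09, adjusted p = 0.0960), which did not pass.

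Col4a5, the X-linked α5 chain, was at 40.3, 39.4, 45.1, 47.3 and 43.0 CPM in WT and at 36.5, 40.2, 39.2, 32.8 and 31.6 CPM in GCERAd. The groups overlapped through GCERAd 2. Its difference was -0.26 (SE 0.09, adjusted p = 0.0444, edgeR), and this call was lost without GCERAd 4 and 5 (-0.15, adjusted p = 0.184), with library kind fitted as well (adjusted p = 0.0963) and without any of 7 single libraries. TRACK had 40.8, 41.5 and 31.5 CPM and GCERAdT 39.9, 41.0, 38.6 and 35.1 CPM. Col4a6, the rare α6 chain, was below the minimum. It was at 2.64, 2.57, 2.69, 2.70 and 3.02 CPM in WT, 2.02, 1.80, 1.37, 1.14 and 1.37 CPM in GCERAd, 1.55, 2.79 and 2.15 CPM in TRACK, and 1.48, 1.27, 1.28 and 1.24 CPM in GCERAdT. All GCERAd libraries were below all WT libraries and all GCERAdT libraries were below all TRACK libraries. The log2 difference was -0.84 (SE 0.22, adjusted p = 0.0180, edgeR without a minimum) for GCERAd against WT, and -0.71 (SE 0.34, adjusted p = 0.298) for GCERAdT against TRACK.

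The balance between both networks was followed with the ratio of Col4a1 to Col4a3 as FPKM. It was 0.822 to 0.967 in WT, 1.03 to 1.52 in GCERAd, 1.45 to 2.27 in TRACK and 1.35 to 1.67 in GCERAdT. Each WT library was below every library of the other groups, which overlapped each other. The ratio of Col4a3 to Col4a4 was 1.03 to 1.24 in WT, 1.16 to 1.34 in TRACK and 1.04 to 1.15 in GCERAdT. In GCERAd it was 0.870, 0.890 and 0.896 in libraries 1 to 3 and 1.06 and 1.09 in libraries 4 and 5. Ratios were not tested. The summed level of 6 podocyte markers was 385 to 521 CPM in WT, 367 to 486 CPM in GCERAd, 551 to 581 CPM in TRACK and 400.4 to 476 CPM in GCERAdT, so that Col4a3 and Col4a4 were not high in the group with the highest podocyte markers.

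**Figure D3:**
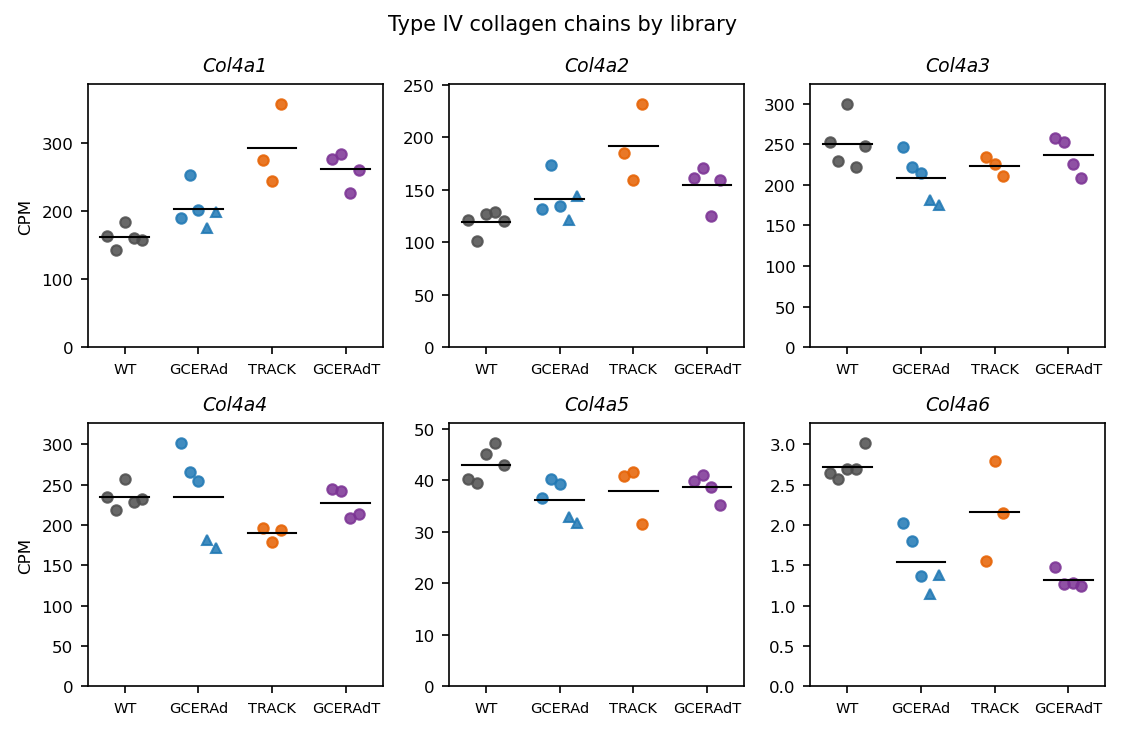
CPM of the 6 type IV chains in each library by group; points are libraries, triangles are GCERAd 4 and 5, and the line is the group mean. Col4a1 and Col4a2 are highest in TRACK, Col4a3 differs little between groups, and Col4a6 in GCERAd and GCERAdT lies below every WT library.

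The other basement membrane collagens differed from each other. Col15a1 (ENSMUSG00000028339, chromosome 4, 47208161 to 47313167) was at 12.1, 10.2, 13.4, 14.6 and 11.1 CPM in WT and at 20.2, 29.2, 27.0, 5.01 and 3.68 CPM in GCERAd. In TRACK it was at 6.28, 5.60 and 6.79 CPM, and in GCERAdT at 9.85, 12.0, 9.94 and 6.50 CPM. GCERAd 1 to 3 were above every WT library and GCERAd 4 and 5 below every one of them. TRACK was below WT in all 3 libraries, with a log2 difference of -0.98 (SE 0.14, adjusted p = 0.000399, edgeR). In a fit of all 17 libraries, whose spread includes that of GCERAd, the same difference did not pass (adjusted p = 0.130), and with library kind added it was -0.46 (adjusted p = 0.540). GCERAdT was higher than TRACK by 0.65 (SE 0.21, adjusted p = 0.0933), which did not pass. Col18a1 was at 131 to 162 CPM in WT, 131 to 164 CPM in GCERAd, 164 to 209.9 CPM in TRACK and 133 to 170.4 CPM in GCERAdT, and edgeR called it in no comparison. All TRACK libraries were above all WT libraries in Col18a1 (0.25, SE 0.10, adjusted p = 0.0611), and DESeq2 called this difference (adjusted p = 0.0289).

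The chains of type I collagen, the main interstitial fibril, were higher in GCERAd than in WT. Col1a1 (ENSMUSG00000001506, chromosome 11, 94936224 to 94953042) was at 6.96, 7.43, 7.91, 8.09 and 6.96 CPM in WT and at 17.0, 22.1, 18.8, 4.84 and 9.57 CPM in GCERAd. TRACK had 11.3, 6.02 and 14.4 CPM, and GCERAdT 9.38, 11.8, 7.67 and 7.58 CPM. GCERAd 1 to 3 were above all other libraries of the series, GCERAd 4 was the lowest of all 17, and the difference of 0.95 (SE 0.32, adjusted p = 0.0474, edgeR) rested on libraries 1 to 3. Without them it was -0.08 (adjusted p = 0.796), and leaving out any of 8 single libraries also ended the call. TRACK and WT differed by 0.50 (SE 0.22, adjusted p = 0.0938), which did not pass.

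Col1a2 was at 28.8, 28.8, 26.6, 25.3 and 25.6 CPM in WT and at 38.6, 47.9, 48.5, 26.2 and 33.5 CPM in GCERAd. In TRACK it was at 44.9, 35.8 and 70.9 CPM and in GCERAdT at 30.3, 41.7, 34.5 and 30.2 CPM. Every TRACK and GCERAdT library was above every WT library, and only GCERAd 4 overlapped with WT. TRACK was higher than WT by 0.90 (SE 0.18, adjusted p = 0.00247, edgeR) and GCERAd by 0.52 (SE 0.15, adjusted p = 0.0258). Leaving out any of 5 single libraries ended the latter call (highest adjusted p = 0.0626), and without GCERAd 1 to 3 the difference was 0.11 (adjusted p = 0.453). GCERAdT was lower than TRACK by a log2 value of -0.54 (SE 0.22, adjusted p = 0.154), which did not pass.

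Col3a1, the chain of the thinner type III fibrils, was at 13.5, 12.0, 15.5, 15.1 and 11.8 CPM in WT, 24.4, 38.2, 38.4, 7.48 and 7.44 CPM in GCERAd, 10.1, 7.06 and 19.7 CPM in TRACK, and 18.0, 23.6, 23.6 and 11.7 CPM in GCERAdT. As with Col15a1, GCERAd 1 to 3 lay above and GCERAd 4 and 5 below all WT libraries. It was called in no comparison, with differences of 0.77 (SE 0.43, adjusted p = 0.209, edgeR) for GCERAd against WT and -0.14 (adjusted p = 0.700) for TRACK against WT. Col5a2, a chain of the type V collagen that sits inside type I fibrils, was at 13.8, 11.2, 12.1, 10.9 and 9.24 CPM in WT, 14.3, 14.2, 13.0, 7.11 and 5.71 CPM in GCERAd, 7.82, 7.11 and 9.16 CPM in TRACK, and 16.2, 12.5, 13.4 and 9.57 CPM in GCERAdT. TRACK was below both WT and GCERAdT without overlap. The difference from WT was -0.51 (SE 0.14, adjusted p = 0.0152, edgeR), and it did not pass without TRACK 1 or without TRACK 2 (highest adjusted p = 0.0674) or with all 17 libraries in the fit (adjusted p = 0.134). GCERAdT was higher than TRACK by 0.71 (SE 0.19, adjusted p = 0.0508), just outside the threshold.

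Col27a1 (ENSMUSG00000045672, chromosome 4, 63214004 to 63334991) was the fibrillar member with the largest called differences. It was at 16.9, 15.3, 10.5, 17.3 and 24.4 CPM in WT and at 22.2, 30.1, 25.1, 62.8 and 51.6 CPM in GCERAd. TRACK had 85.4, 74.4 and 43.6 CPM, and GCERAdT 126, 103, 88.1 and 54.0 CPM. All TRACK and GCERAdT libraries were above all WT libraries, and in contrast to Col1a1, Col3a1 and Col15a1 the highest GCERAd libraries were 4 and 5. TRACK was higher than WT by a log2 difference of 2.00 (SE 0.26, adjusted p = 0.000214, edgeR), GCERAd by 1.16 (SE 0.30, adjusted p = 0.0134), and GCERAdT was higher than GCERAd by 1.30 (SE 0.33, adjusted p = 0.0203). GCERAdT against TRACK gave 0.48 (SE 0.29, adjusted p = 0.333). No single library ended the call in GCERAd against WT, where the difference was 0.92 to 1.34 with 1 library left out. It was 0.61 (adjusted p = 0.0524) without GCERAd 4 and 5, and 0.93 with library kind fitted as well (adjusted p = 0.0548). The GCERAdT against GCERAd call was lost without GCERAdT 1 or GCERAdT 2 (highest adjusted p = 0.0629). In mean FPKM Col27a1 went from 1.30 in WT to 5.21 in TRACK and 7.12 in GCERAdT, where it was above Col1a1, Col1a2 and Col3a1.

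**Figure D4:**
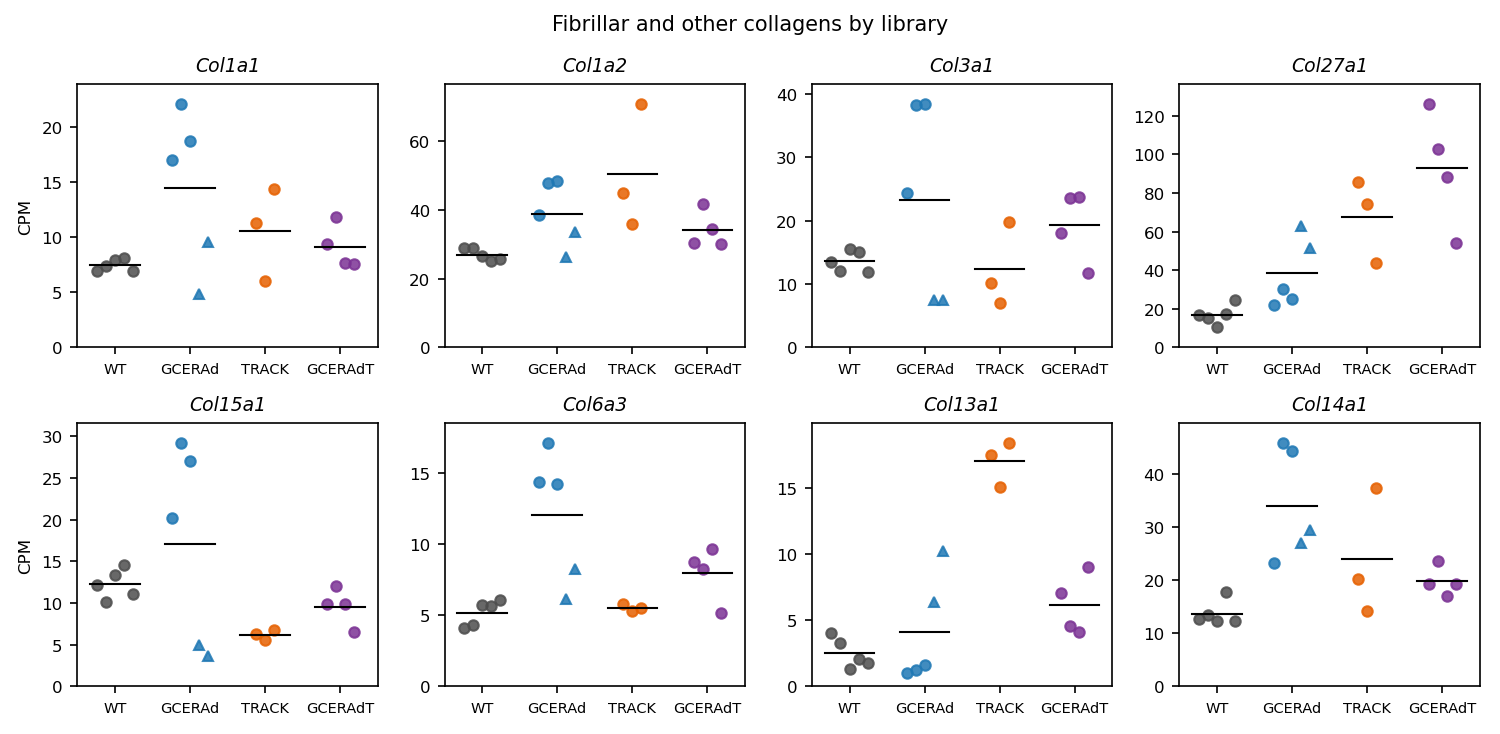
CPM of 8 fibrillar, basement membrane and other collagens in each library by group; points are libraries, triangles are GCERAd 4 and 5, and the line is the group mean. In Col1a1, Col3a1, Col15a1 and Col6a3 the triangles lie below the other GCERAd libraries, in Col27a1 and Col13a1 above them, and Col13a1 is highest in TRACK.

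Type VI collagen forms beaded filaments around cells and near basement membranes from an α1 and an α2 chain with 1 of several further chains. Col6a1 was at 9.15, 9.03, 11.0, 10.9 and 11.2 CPM in WT, 14.0, 15.8, 13.1, 9.26 and 14.7 CPM in GCERAd, 16.8, 14.6 and 22.9 CPM in TRACK, and 10.5, 16.0, 12.8 and 13.5 CPM in GCERAdT. TRACK was above WT in every library, by 0.82 (SE 0.15, adjusted p = 0.00153, edgeR), and GCERAd by 0.38 (SE 0.14, adjusted p = 0.0657), which did not pass. Col6a2 was at 4.78, 4.71, 5.99, 6.72 and 6.28 CPM in WT and at 8.03, 11.1, 9.24, 6.17 and 7.01 CPM in GCERAd. Its groups overlapped through GCERAd 4, and its difference of 0.53 (SE 0.17, adjusted p = 0.0493, edgeR without a minimum) was lost without any of 7 single libraries. TRACK had 7.89, 5.93 and 11.0 CPM of Col6a2, and GCERAdT 8.41, 8.79, 7.11 and 8.19 CPM.

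Col6a3, the usual partner of these, was at 4.11, 4.30, 5.70, 5.65 and 6.05 CPM in WT and at 14.4, 17.1, 14.2, 6.19 and 8.25 CPM in GCERAd. In TRACK it was at 5.80, 5.30 and 5.55 CPM and in GCERAdT at 8.79, 8.24, 9.66 and 5.15 CPM. Every GCERAd library was above every WT library, GCERAd 4 by the least, and TRACK lay within the WT range. GCERAd was higher than WT by 1.22 (SE 0.26, adjusted p = 0.00514, edgeR), and the difference was 1.15 to 1.39 in the fits without 1 library in which it still met the minimum. Col6a3 met that minimum only through GCERAd, so a difference was built into the selection in all of these fits. Thus Col6a1 passed the threshold in TRACK against WT and Col6a3 in GCERAd against WT, although whether the chains differ in this was not tested.

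Among the chains that can take its place, Col6a6 (ENSMUSG00000043719, chromosome 9, 105687809 to 105828160, minus strand) was nearly without counts in WT. It had 0, 0, 1, 9 and 0 counts in WT 1 to 5, and 244, 103, 115, 5 and 12 counts in GCERAd 1 to 5. TRACK had 97, 125 and 100 counts, and GCERAdT 359, 459, 486 and 288 counts. As CPM, GCERAdT (4.52 to 7.94) was above TRACK (1.63 to 2.19) and TRACK above WT (0 to 0.166), in each case without overlap, and GCERAd ran from 0.0937 to 3.79. The adjusted p was 5.85e-05 for TRACK against WT, 0.00350 for GCERAd against WT and 0.000307 for GCERAdT against TRACK (edgeR without a minimum). GCERAdT was higher than TRACK by a log2 value of 1.75 (SE 0.27), and this held without any single library (1.61 to 1.88). The fitted values against WT, 5.65 for TRACK and 5.39 for GCERAd, depend on the prior count because WT held so few counts.

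Col6a5 had 1, 0, 2, 1 and 0 counts in WT, 0, 11, 16, 0 and 0 in GCERAd, 26, 14 and 25 in TRACK, and 6, 1, 0 and 0 in GCERAdT. TRACK was above WT and above GCERAdT without overlap (adjusted p = 0.00238 and 0.0429, edgeR without a minimum), with the latter call lost without any of 4 single libraries (highest adjusted p = 0.127). Col6a4 was at 0, 0.187, 0.179, 0.148 and 0.0165 CPM in WT and 0.375 to 0.676 CPM in GCERAd, without overlap (2.39, SE 0.73, adjusted p = 0.0441). That call was lost without any of 8 single libraries. Both genes were below 0.1 FPKM in every group.

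Of the remaining types, Col13a1 (ENSMUSG00000058806, chromosome 10, 61838236 to 61979108, minus strand) separated TRACK from the other groups. It was at 4.08, 3.27, 1.33, 2.07 and 1.75 CPM in WT and at 1.01, 1.24, 1.59, 6.41 and 10.3 CPM in GCERAd. TRACK had 17.5, 15.1 and 18.5 CPM, and GCERAdT 7.10, 4.59, 4.09 and 9.03 CPM. The TRACK libraries were above all other libraries, and those of GCERAdT were above all WT libraries. TRACK was higher than WT by 2.76 (SE 0.31, adjusted p = 9.1e-05, edgeR), and GCERAdT was lower than TRACK, at -1.44 (SE 0.24, adjusted p = 0.00914). The latter call held without any single library (-1.66 to -1.29), but the adjusted p was 0.163 with all 17 libraries in the fit, where the value was -1.45, and 0.0735 among libraries of kind B alone, where it was -1.37. With library kind added to the fit of all 17 libraries the difference was -0.86 (adjusted p = 0.421). Pericyte and endothelial marker sums were also lower in all GCERAdT than in all TRACK libraries, and their part in this difference was not tested.

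Col14a1, a FACIT collagen that binds fibrils, was called in 3 comparisons. It was at 12.7, 13.5, 12.2, 17.8 and 12.3 CPM in WT and at 23.3, 45.8, 44.2, 26.9 and 29.3 CPM in GCERAd. TRACK had 20.3, 14.2 and 37.4 CPM, and GCERAdT 19.3, 23.6, 17.0 and 19.3 CPM. All GCERAd libraries, 4 and 5 included, were above all WT libraries. The difference was 1.30 (SE 0.20, adjusted p = 0.000662, edgeR) for GCERAd against WT, and 1.16 to 1.41 with 1 library left out. It was 0.80 for TRACK against WT (SE 0.26, adjusted p = 0.0288), where TRACK 2 fell within the WT range and the call was lost without WT 1, 3 or 5 or without TRACK 3 (highest adjusted p = 0.176). GCERAdT was lower than GCERAd, at -0.76 (SE 0.21, adjusted p = 0.0286), and this call was lost without any of 5 single libraries (highest adjusted p = 0.0837). In the annotation, 3 genes overlap Col14a1 on the opposite strand.

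Col16a1, another FACIT collagen, was at 9.36, 9.78, 20.1, 8.94 and 10.8 CPM in WT, 7.99, 10.3, 6.86, 5.44 and 5.30 CPM in GCERAd, 16.7, 14.0 and 11.4 CPM in TRACK, and 13.2, 13.9, 12.5 and 14.8 CPM in GCERAdT. GCERAdT was above GCERAd in every library, by 0.94 (SE 0.19, adjusted p = 0.00634, edgeR), and the call held without any single library (0.86 to 1.12). GCERAd against WT gave -0.72 (SE 0.25, adjusted p = 0.0524). Col8a1, a short chain collagen of vessel walls, was at 19.3, 22.6, 9.59, 15.5 and 11.1 CPM in WT, 6.90, 7.64, 9.36, 23.4 and 13.5 CPM in GCERAd, 26.3, 19.6 and 28.2 CPM in TRACK, and 25.5, 23.2, 25.8 and 26.7 CPM in GCERAdT. GCERAd 4 overlapped with GCERAdT and the other GCERAd libraries did not. The difference of 1.08 between GCERAdT and GCERAd (SE 0.31, adjusted p = 0.0334, edgeR) was lost without any of 7 single libraries (highest adjusted p = 0.0735).

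Col19a1, a FACIT collagen known from developing muscle and neurons, was at 0.0447, 0.017, 0, 0 and 0.165 CPM in WT and at 1.23, 1.07, 0.381, 0.187 and 0.529 CPM in GCERAd. TRACK had 0.388, 0.386 and 0.228 CPM, and GCERAdT 0.760, 1.32, 1.32 and 1.05 CPM. WT was below every library of the other groups, and GCERAdT was above TRACK. The adjusted p was 0.00853 for GCERAd against WT and 0.0429 for GCERAdT against TRACK (edgeR without a minimum), and the latter call was lost without any of 5 single libraries. Col26a1 was at 3.62 to 5.38 CPM in WT and 1.87 to 4.00 CPM in GCERAd, a difference of -0.67 (SE 0.20, adjusted p = 0.0367) that was lost without any of 8 single libraries.

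The other members did not pass in any pairwise comparison by edgeR. Col5a1, with a highest mean of 0.978 FPKM in GCERAd, was just under the minimum and differed by 0.57 (adjusted p = 0.126, edgeR without a minimum) between GCERAd and WT. Col12a1 and Col23a1 were at 5.53 to 6.77 and at 4.09 to 5.24 CPM as group means, with differences between -0.27 and 0.36 in the comparisons of GCERAd with WT, TRACK with WT and GCERAdT with TRACK. Col5a3 was at 1.20 to 3.30 CPM and Col20a1 at 0.383 to 0.555 CPM. The cartilage collagens Col2a1, Col11a1, Col11a2 and Col9a1 to Col9a3, and Col24a1, Col7a1, Col8a2, Col17a1, Col22a1, Col25a1 and Col28a1, had group means of 0 to 0.672 CPM.

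Among the 17 members with a mean of at least 1 FPKM in GCERAd, 10 were lower in both GCERAd 4 and GCERAd 5 than in GCERAd 1 to 3, and 2 were higher, beside 24.2% and 28.8% of all 11222 genes at this level. This was noticed after the data had been seen, and the labels give no reason to part the group. Pericyte markers summed to 249 and 299 CPM in GCERAd 4 and 5 and to 156 to 226 CPM in GCERAd 1 to 3, and endothelial markers to 667 and 684 CPM against 472 to 546 CPM. Fibroblast markers summed to 142 and 186 CPM against 122 to 149 CPM. Other markers were lower in GCERAd 4 and 5, namely the collecting duct water channel Aqp2 (107 and 102 CPM against 275 to 287 CPM), Calb1 of the distal tubule (183 and 169 CPM against 306 to 344 CPM) and the sum of 4 mesothelium and urothelium markers (1.03 and 1.18 CPM against 3.93 to 8.83 CPM), whereas the sum of all distal tubule and collecting duct markers was at 5376 and 4949 CPM against 4393 to 5022 CPM. Adipocyte markers summed to 28.4 and 27.0 CPM in GCERAd 2 and 3 and to 0.218 to 0.844 CPM in the other GCERAd libraries. The part of these shifts in the collagen values was not tested. Without GCERAd 4 and 5, 12 members were called in GCERAd against WT, 11 higher and 1 lower, beside 16.1% of all genes called higher and 14.7% lower. These included Col3a1 (1.32, SE 0.15, adjusted p = 0.000105, edgeR) and Col15a1 (1.06, SE 0.14, adjusted p = 0.000275). Without GCERAd 1 to 3, 10 members were called, 3 higher and 7 lower (16.7% and 17.4% of all genes), and Col3a1 was at -0.90 (SE 0.14, adjusted p = 0.00126) and Col15a1 at -1.53 (SE 0.19, adjusted p = 0.000329). Because libraries were left out for the values they showed, these adjusted p-values describe the fits and are no independent evidence.

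In GCERAdT against GCERAd, 9 members were called without GCERAd 4 and 5 (4 higher and 5 lower, beside 14.7% and 13.5% of all genes) and 8 without GCERAd 1 to 3 (7 higher and 1 lower, beside 7.87% and 8.50%). Col16a1 and Col14a1 were called in both, the first higher and the second lower. Col15a1 and Col3a1 changed sign between these fits, from -1.39 to 1.18 and from -0.78 to 1.40.

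Whether the knockout label went with a different change on the TRACK background than off it was tested as the difference between GCERAdT against TRACK and GCERAd against WT, with all 17 libraries. Of 18 members tested, 4 passed, each with a more negative change on the TRACK background, beside 12.8% of all 12197 genes called in this direction and 25.2% either way. They were Col14a1 (-1.55, SE 0.36, adjusted p = 0.00534, edgeR), Col1a2 (-1.06, SE 0.28, adjusted p = 0.0117), Col6a1 (-0.81, SE 0.24, adjusted p = 0.0199) and Col4a2 (-0.52, SE 0.18, adjusted p = 0.0458). Below the minimum, Col26a1 passed with a more positive change and Col6a5 and Col6a6 with a more negative one, in the fit in which 4.56% of genes passed in the first direction and 5.39% in the second. For Col1a2 the contrasts were -0.54 in GCERAdT against TRACK and 0.52 in GCERAd against WT. The calls of Col14a1 (-1.82 to -1.08) and Col1a2 (-1.25 to -0.74) held without any single library. That of Col6a1 was lost without TRACK 3 (adjusted p = 0.0694), and that of Col4a2 without any of 12 single libraries. Without GCERAd 1 to 3, Col1a2 was at -0.65 (adjusted p = 0.0740) and Col14a1 was still called (-1.26, adjusted p = 0.0126). The sex difference between WT and the other groups enters the second contrast only and cannot be told apart from this difference.

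Genes that act on collagen were taken from 6 lists. Of the 33 genes of synthesis and processing, 25 were tested in TRACK against WT, where 12 were higher and 4 lower. The lysyl hydroxylases Plod1 and Plod2, which prepare collagen for cross-linking, and the prolyl hydroxylase subunit P4ha2, which stabilizes the triple helix, were among those highest above WT. P4ha2 was at 45.4 ± 5.63 CPM in TRACK (n = 3) and 14.9 ± 0.611 CPM in WT (n = 5), a log2 difference of 1.60 (adjusted p = 8.95e-07, edgeR). Plod2 was at 103 ± 23.4 and 27.4 ± 2.17 CPM (1.91, adjusted p = 3.91e-06), and Plod1 differed by 1.71. In GCERAdT against GCERAd, 7 of 24 tested genes of this list were higher and 1 lower, with Plod2 at 153 ± 11.6 CPM (n = 4) and 30.9 ± 5.84 CPM (n = 5), a difference of 2.33 (adjusted p = 2.63e-06), P4ha2 at 1.46 and P4ha1 at 1.23. Other hydroxylases of the list did not follow: P3h2 was lower in TRACK than in WT (-0.45, SE 0.08, adjusted p = 0.00149, edgeR), and Plod3 differed by 0.21 in both comparisons (adjusted p = 0.112 and 0.117).

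In GCERAd against WT, 6 of 25 tested genes of this list were higher and 8 lower. Loxl1, a cross-linking oxidase, was higher (1.12, SE 0.12, adjusted p = 6.51e-05, edgeR), and Bmp1, the protease that removes the C-terminal propeptide of fibrillar procollagens, was lower (-1.14, SE 0.12, adjusted p = 4.11e-05), at 6.61 ± 0.988 CPM in GCERAd and 14.5 ± 1.41 CPM in WT. In GCERAdT against TRACK, 2 of 25 were higher and 3 lower. The oxidase Lox was lower there (-1.75, SE 0.32, adjusted p = 0.0122), at 7.09 ± 0.832 CPM in GCERAdT and 24.2 ± 14.5 CPM in TRACK.

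For the list of 17 small leucine-rich and other fibril-associated matrix genes, 9 of 13 tested were higher and 0 lower in TRACK against WT, led by the proteoglycan Dcn (1.88, adjusted p = 0.000327, edgeR). Of those tested, Tnxb, Eln, Dpt and Fbln1 met the minimum only through TRACK, so a difference in them was built into the selection. The list had 5 higher and 1 lower of 11 in GCERAd against WT, and 3 higher and 1 lower of 11 in GCERAdT against GCERAd. In GCERAdT against TRACK 0 were higher and 2 of 13 lower (Eln and Dcn). Eln met the minimum there only through TRACK, so a difference in it was built into the selection. The 20 basement membrane partners had 6 higher and 1 lower of 16 in TRACK against WT, with the type IV cross-linking enzyme Pxdn at 1.40 (adjusted p = 1.89e-05) and Npnt, an integrin ligand, at -1.61 (adjusted p = 0.00019). They had 6 higher and 5 lower of 17 in GCERAd against WT, 2 and 1 of 17 in GCERAdT against TRACK, and 6 and 1 of 18 in GCERAdT against GCERAd.

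Among 16 genes of collagen degradation and its inhibitors, 4 of 9 tested were higher and 0 lower in GCERAd against WT, including Timp3, an inhibitor of matrix proteases, and Pepd, which cleaves proline dipeptides from collagen breakdown. In GCERAdT against TRACK 0 were higher and 2 of 8 lower (Timp2 and Timp3). TRACK against WT had 2 higher and 0 lower of 7, and GCERAdT against GCERAd 0 higher and 3 lower of 10. Of 9 collagen receptors, 4 were tested, and 1 (Ddr2) was higher in GCERAd than in WT and 2 (Itgb1 and Ddr2) in TRACK than in WT, while 0 were called lower. In the TGF-β signalling list, 10 of 15 tested genes were higher and 1 lower in TRACK against WT, including Ccn2 (1.41, adjusted p = 1.1e-05, edgeR) and Tgfbi (1.76, adjusted p = 0.000238). Both were lower in GCERAdT than in TRACK (-0.59, adjusted p = 0.00537, and -1.16, adjusted p = 0.00865), where 1 of 15 was higher and 2 were lower. The gene called higher there was the ligand Tgfb2 (1.92, adjusted p = 0.0034, edgeR), with means of 2.47 CPM in TRACK and 7.53 CPM in WT. Tgfb2 was lower in GCERAd than in WT (-1.73, adjusted p = 0.00238, edgeR). In both calls it met the minimum only through the higher group, so a difference was built into the selection. GCERAd against WT had 4 higher and 1 lower of 14, and GCERAdT against GCERAd 2 higher and 0 lower of 14. The shares of all genes called given for each comparison above are the background for these counts. Genes that met the minimum through 1 group only are among those counted in the lists, and a difference in such genes was built into the selection.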

How the data were processed

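Kidney cortex RNA was sequenced from stranded mRNA libraries, and the paper's methods give paired reads of 51 bases. In the paper's sequencing summary the yield per cluster differed between samples, so this length may not hold for every library. Per the labels and the submitters' processing notes, the authors used cutadapt for trimming, STAR for alignment to GRCm38 and HTSeq for counting, and the deposited table holds raw counts per gene for 17 samples without normalization, and bcl2fastq 2.20 is also named. The strand setting, annotation release and handling of reads with several matches are not given in the sources used here, so overlapping genes carry uncertainty. Groups were taken from the sample labels.

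From the counts, CPM and FPKM were computed in R 4.3.3 with edgeR 4.0.16, TMM scaling over 17 samples and merged exon lengths of GENCODE M21 (360 of 48795 identifiers had no length). edgeR's quasi-likelihood test was run on each pair of groups, on genes whose mean reached 1 FPKM in either, with Benjamini-Hochberg adjustment and a threshold of 0.05. The difference between contrasts used all 17 samples. On simulated data with 200 changed genes, 90% were recovered for GCERAd against WT (11636 genes), 90.5% for GCERAdT against TRACK (11865), 87% for TRACK against WT (11950), 88% for GCERAdT against GCERAd (11793) and 76% for the difference (12197). The simulated log2 changes were at least 1 either way, in draws without library kinds or repeat libraries. Of changes of 1, 84.1% were recovered for GCERAd against WT and 69.4% for the difference. Recovery of smaller changes was not simulated.

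Values per library are given for the type I, III and IV chains, Col15a1, Col18a1, Col6a1 to Col6a3 and members called in at least 2 comparisons, and for some others chosen after their values were seen. The members and lists were chosen with earlier results of these data known. Alternatives were DESeq2 1.42.0, RLE scaling, no minimum, other lengths, replicate block, library kind and libraries left out. Samples with the same replicate number deviated together in GCERAdT against GCERAd (correlations of 0.403 to 0.549 in 4 of 4 pairs, each number being of 1 library kind), but not in the other comparisons. No library pair agreed within sampling noise, but repeat libraries of the same mouse can differ by more than that. Whether any libraries came from the same mouse was therefore not tested, and each was counted separately. In the paper's sequencing summary, some sample names recur with an added letter. A library without a count of a gene could hold up to 3 counts of it, which covers counting error only.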

Additional observations from a re-analysis of the deposited data

Results flagged for a closer look

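In 60 groups of 4 or 5 libraries of 20 members, 5 had a library far from the rest, and chance gives about 1 in 20. They were Col4a6 in WT 5 (3.02 CPM, others 2.57 to 2.70) and in GCERAdT 1 (1.48 CPM, others 1.24 to 1.28), Col14a1 in WT 4 (17.8 CPM, others 12.2 to 13.5), Col19a1 in WT 5 (0.165 CPM, others 0 to 0.0447) and Col6a6 in WT 4 (0.166 CPM, others 0 to 0.0179).

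The change with the knockout label differed between the TRACK background and its absence in 7 members by the test of the difference (edgeR, log2 scale, negative where the change was lower on the TRACK background). These were Col1a2 (-1.06), Col4a2 (-0.52), Col6a1 (-0.81) and Col14a1 (-1.55) among genes above the minimum, and Col6a5 (-6.39), Col6a6 (-3.69) and Col26a1 (0.93) in the fit without one, in which 4.56% of genes were called higher and 5.39% lower. The values of Col6a5 and Col6a6 depend on the prior count, since WT held few counts of them.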

How the results depend on the processing

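TRACK against WT had 7 to 13 calls of collagen genes over the alternatives (10 as reported, 12 with DESeq2, which added Col18a1 and Col8a1), and 9 to 11 with 1 library left out. In GCERAd against WT the 7 calls became 9 with DESeq2, which added Col6a1 and Col16a1, 12 without a minimum, 4 with possible repeat libraries summed (WT 1 and 2, GCERAd 2 and 3), 4 with the replicate block, 12 without GCERAd 4 and 5, and 3 to 9 with 1 library left out. In GCERAdT against TRACK the single call became 4 with DESeq2, 5 without a minimum, 4 with the replicate block, 0 with all 17 libraries, 0 with these and library kind, 0 in kind B alone, and 1 to 3 with 1 library left out. In GCERAdT against GCERAd the 5 calls became 3 with repeats summed, 2 with GCERAdT 2 and 3 summed as well, 9 without GCERAd 4 and 5, 8 without GCERAd 1 to 3, 7 with the replicate block and 1 to 5 with 1 library left out. For the difference between contrasts the 4 calls became 7 without a minimum, 8 without GCERAd 4 and 5, 10 without GCERAd 1 to 3, 5 with the replicate block and 2 to 6 with 1 library left out. The share of all genes called shifted as well, in GCERAdT against GCERAd from 19.2% to 31.8% with the replicate block. Such shares are given above for only some of these fits, so the counts describe the fits and not the collagen genes in particular. The cause of these shifts was not tested. Among members called as reported, Col1a1 in GCERAd against WT changed sign, with a log2 difference of -0.083 without GCERAd 1 to 3. With the longest transcript as length, the basement membrane share in WT was 81.7%. Over the members named, 512 values kept their direction and side of the threshold, 182 lost the call and 1 changed sign. A kind covariate was not fitted in the pairwise comparisons with TRACK. All 3 TRACK libraries were of kind B, WT held 4 of kind A and 1 of kind B, and GCERAdT held 2 of each. Kind and group could thus hardly be told apart within TRACK against WT. Library kind within 17 libraries or kind B alone, GCERAdT 2 and 3 summed and several GCERAd libraries left out were chosen after seeing the data. Genes with fewer than 3 counts per library limit what could be detected.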
